A study of Homo sapiens with 8 samples.

Results

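AT7519, an inhibitor of cyclin-dependent kinases (CDKs), and OSMI-2, an inhibitor of O-GlcNAc transferase (OGT), were given singly to LNCaP cells and their effects on gene expression were compared with each other directly. The LNCaP line comes from a human prostate cancer that had spread to a lymph node and keeps an active androgen receptor. Strand-specific RNA sequencing libraries were made from 4 groups of 2 libraries after 4 hours of treatment: control, 40 µM OSMI-2, 0.5 µM AT7519, and both agents at the same doses. All groups were LNCaP cells with no genetic change named in the labels, and the labels do not name the vehicle of the controls. These doses follow the design text of the series (the treatment protocol prints mM in place of µM). They differ between the agents, so what follows compares 1 dose of each at 1 time. The comparison took the 2 AT7519 and the 2 OSMI-2 libraries, 4 of 8 in the series, and every gene that averaged 10 or more normalised counts in them, which kept 19336 of 55737 genes. At that limit, RP11-47P18.2 (mean 10.005 normalised counts) was kept and RP11-432I5.8 (mean 9.997) was not.

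CDK9 with cyclin T forms P-TEFb, the kinase that phosphorylates the RNA polymerase II tail and its pausing factors so that a polymerase paused near a gene's start can go on. Cells hold much of their P-TEFb inactive in the 7SK particle, a non-coding RNA capped by MEPCE and bound by HEXIM1 or HEXIM2. AT7519 inhibits CDK9 together with several cell cycle CDKs. OGT attaches single N-acetylglucosamine residues to serine and threonine of nuclear and cytosolic proteins, among them RNA polymerase II and transcription factors, and the enzyme encoded by OGA, listed here under its older symbol MGEA5, removes them. A transcript with a short life falls soon after its synthesis stops, whereas a long-lived one hardly changes within hours, and its share of all RNA then rises.

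The OSMI-2 libraries held 88244103 and 104520670 reads assigned to genes and the AT7519 libraries 92890671 and 111848023, so that 1 read was worth 0.829 to 1.27 normalised counts. Intervals of read ratios below cover counting error only, and intervals of log2 differences are limma's. Replicates of an agent differed by far more than counting error (chi-square per degree of freedom 19.2 with OSMI-2 and 29.4 with AT7519), so no library repeats another. The labels do not say that replicates were separate cultures, so a p-value speaks of the scatter among the libraries at hand, which can be purely technical. The 13 mitochondrially encoded mRNAs took 4.99% and 5.53% of counts with OSMI-2 and 7.04% and 6.57% with AT7519, and the 10 most abundant genes took 7.74% and 8.27% against 10.4% and 9.61%. A level is thus relative to how libraries are scaled. On the deposited scale the median tested gene differed by -0.025 (log2, AT7519 minus OSMI-2), after scaling to equal library totals by -0.44, and after scaling to equal mitochondrial mRNAs by -0.81. Differences are given on the deposited scale, relative to that median, with a remark wherever their sign depends on it. In bulk RNA, fewer cells of a kind and less RNA per cell cannot be told apart. Luminal prostate markers were present throughout (10 of 10 detected, summed level 460836 to 484075 normalised counts with AT7519 and 440737 to 480535 with OSMI-2), of which 5 were called lower and 2 higher with AT7519 (median log2 difference -0.20). Basal markers, 5 in number, summed to 64.7 to 76.3 with AT7519 and 61.8 to 76.2 with OSMI-2, with TP63 at 0 in all 4 libraries, and the 5 neuroendocrine markers to 64.7 to 97.6 and 69.7 to 96.1, with INSM1 at 0. Of the 3 endothelial markers CDH5 and KDR were at 0, and the other brought the sum to 1132 to 1409 and 1237 to 1394. The 6 blood and immune markers summed to 8.88 to 12.2 and 4.14 to 19.6, with CD3E and HBB at 0. Of these 4 lists, only 1 basal, 1 neuroendocrine, 1 endothelial and 0 blood and immune markers reached the limit of the test. None of those tested was called. Stromal markers summed to 3606 to 4446 normalised counts with AT7519 and 2686 to 3324 with OSMI-2, with 2 of the 5 tested called higher and 2 of 7 below the limit of the test.

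Between both agents, 11254 of 19336 genes (58.2%) differed at an adjusted p below 0.05 (limma's moderated test with Benjamini-Hochberg adjustment over all 19336 genes, used for every p-value below). Of these, 5556 (28.7% of those tested) were higher and 5698 (29.5%) lower with AT7519. Counts of list members called below are to be read beside these shares, and some lists lie near them. Both directions were close to even in number but not in size: 1005 genes (5.2%) were higher and 2705 (14%) lower with a log2 difference of 1 or more, that is 2-fold. The split depends on the scaling. It stayed near even with equal upper quartiles (5378 higher, 5855 lower) and quantile normalisation (5688 higher, 4975 lower). With equal totals, by contrast, 2348 genes were higher and 9334 lower, and with equal mitochondrial mRNAs 552 were higher and 12870 lower. Set against control on the same genes, 10310 (53.3%) were called with AT7519 and 584 (3.02%) with OSMI-2. These last 2 comparisons share the control libraries, so they are used here only to say on which side of control each agent lay.

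**Figure D1:**
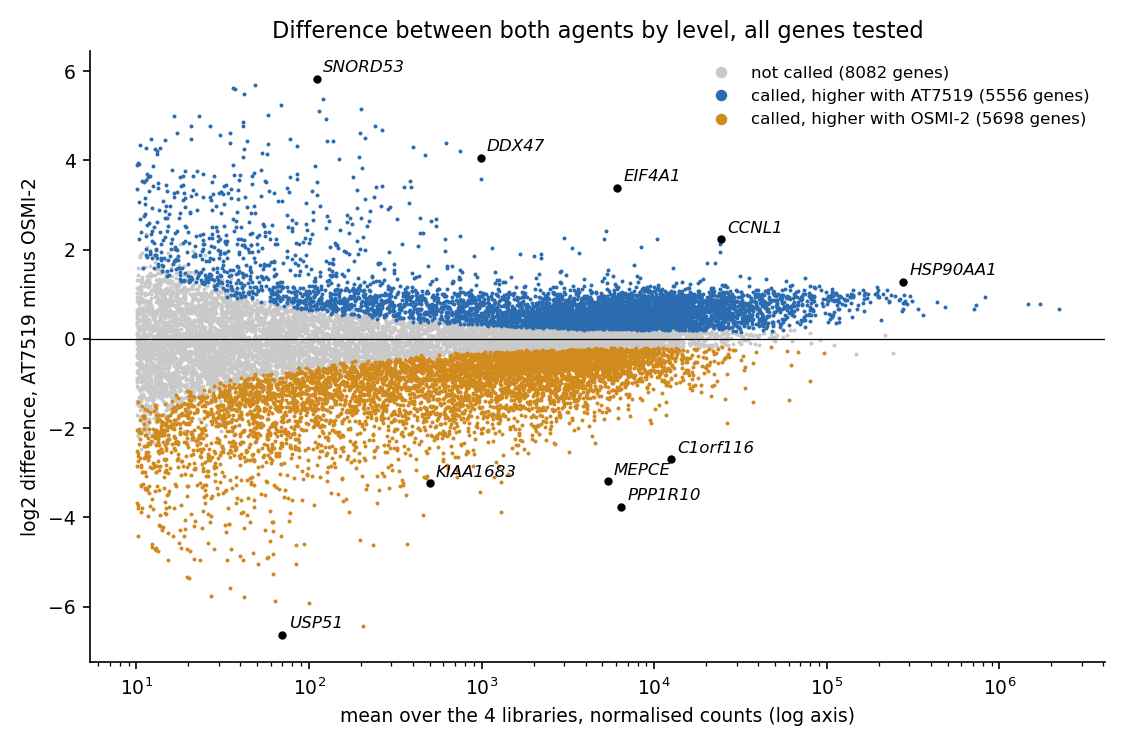
Each point is 1 of the 19336 genes tested, by its mean level in the 4 libraries (log axis) and its log2 difference between AT7519 and OSMI-2. Genes called higher with AT7519 crowd at the right, among abundant transcripts, and reach furthest upward among scarce ones, while genes called lower spread over the middle and left, with PPP1R10, MEPCE and C1orf116 standing apart at high levels.

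Among called genes of the CDK9 complex, its activators were higher and its restraints lower with AT7519 on the deposited scale. MEPCE, the methyltransferase that caps and holds 7SK RNA, stood at 1222 and 920.2 normalised counts in the 2 AT7519 libraries, 10041 and 9261 in the 2 OSMI-2 libraries and 10631 and 10745 in control. Both AT7519 libraries lay far below all others, and the gene was 9.08-fold lower with AT7519 than with OSMI-2 (log2 difference -3.18, SE 0.12, adjusted p = 1.63e-09). HEXIM1, the protein that keeps P-TEFb inactive in the 7SK particle, held 2043 and 2124 with AT7519, 6538 and 7259 with OSMI-2 and 6261 and 6719 in control. Again the AT7519 libraries alone were low, 3.31-fold below OSMI-2 (log2 difference -1.73, SE 0.11, adjusted p = 4.29e-08), and its close relative HEXIM2 was lower as well (-2.14, adjusted p = 2.05e-07). The kinase and its cyclins went the other way. CDK9 held 8127 and 8640.2 normalised counts with AT7519 against 4965 and 4904 with OSMI-2 and 4872 and 4966 in control, with no overlap (1.7-fold higher; log2 difference 0.76, SE 0.0902, adjusted p = 5.96e-06). The difference of CDK9 was -0.0271 with equal mitochondrial mRNAs. Cyclin T2 (CCNT2) was higher by 0.56 (adjusted p = 7.96e-05), or -0.23 with equal mitochondrial mRNAs. Cyclin T1 (CCNT1) was higher by 0.30 (adjusted p = 0.0424), a call lost without any 1 of 6 of the 8 libraries (adjusted p 0.0549 to 0.175), and -0.49 with equal mitochondrial mRNAs. Of the 8 genes of this list, 3 were thus called higher, 3 lower and 2 not. Each direction made up 37.5%, beside 28.7% higher and 29.5% lower over all genes.

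Further along the transcription cycle, the largest difference among abundant genes (5000 normalised counts or more on average) was that of PPP1R10, whose product PNUTS guides protein phosphatase 1 to the polymerase at the end of genes. It held 794 and 981 normalised counts with AT7519, 12248 and 11687 with OSMI-2 and 11608 and 11938 in control, so that both AT7519 libraries were 13.5-fold below OSMI-2 (log2 difference -3.76, SE 0.12, adjusted p = 4.42e-10). In its list of 29 termination and Integrator genes, 11 were higher and 13 lower with AT7519 (37.9% and 44.8%), with a median of -0.15. The Integrator subunit INTS5 (-1.92, adjusted p = 3.11e-08) and the cleavage factor PCF11 (-1.33, adjusted p = 4.36e-08) were among the lower ones. Among 14 transcriptional CDKs and cyclins, 8 were higher and 2 lower (median 0.37, which turned to -0.0531 with equal totals and -0.43 with equal mitochondrial mRNAs). The 2 lower ones were CDK13, a kinase of elongating polymerase (-1.43, adjusted p = 7.08e-08), and CDK7, the kinase of the initiation factor TFIIH (-0.71, adjusted p = 0.000611). At the other end stood CCNL1, cyclin L1, a partner of the splicing-linked CDK11, with 37216 and 42853 normalised counts under AT7519, 8238 and 8732 under OSMI-2 and 8369.7 and 7854 in control. Its AT7519 libraries were 4.71-fold above OSMI-2 (log2 difference 2.24, SE 0.0848, adjusted p = 1.63e-09) and stayed above it by 1.44 with equal mitochondrial mRNAs.

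Of the 12 polymerase subunits, 10 were higher with AT7519 (median 0.74, or -0.0515 with equal mitochondrial mRNAs), led by the small subunit POLR2L (1.07, adjusted p = 9.51e-08). The 1 lower subunit was POLR2A, the catalytic subunit that carries the phosphorylated tail (-0.52, adjusted p = 0.000209). Elongation factors gave 12 higher and 6 lower of 25 (48% and 24%). Their median was 0.21, or -0.21 with equal totals and -0.58 with equal mitochondrial mRNAs. The lower ones included AFF1, a scaffold of the super elongation complex (-1.28, adjusted p = 2.06e-07), and the bromodomain protein BRD3 (-1.05, adjusted p = 1.02e-06). Mediator, which links activators to the polymerase, had a median of -0.0253. It gave 10 higher and 8 lower of 29 (34.5% and 27.6%, near the 28.7% and 29.5% of all genes). There MED13, of the kinase module, was lowest (-1.73, adjusted p = 6.79e-09) and MED26, which recruits elongation factors, highest (1.21, adjusted p = 3e-06).

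The 250 bases before the annotated starts of HEXIM1, PPP1R10 and CCNL1 are shown because these 3 genes lay at opposite ends of the transcription machinery. They come from RefSeq on build GRCh38.p14 and read 5′ to 3′ in the direction of the gene: chr17:45148225-45148474 on the plus strand for HEXIM1, chr6:30617244-30617493 on the minus strand for PPP1R10 and chr3:157160148-157160397 on the minus strand for CCNL1. Capitals mark 4 motifs searched on both strands: the core promoter letters TATAAA, the GC box GGGCGG, the E-box CACGTG and the cAMP response element TGACGTCA.
HEXIM1: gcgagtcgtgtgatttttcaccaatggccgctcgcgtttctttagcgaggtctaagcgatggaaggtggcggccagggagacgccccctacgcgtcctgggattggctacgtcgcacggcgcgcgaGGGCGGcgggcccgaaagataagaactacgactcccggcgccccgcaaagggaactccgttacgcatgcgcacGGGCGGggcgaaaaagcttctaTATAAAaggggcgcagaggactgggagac
PPP1R10: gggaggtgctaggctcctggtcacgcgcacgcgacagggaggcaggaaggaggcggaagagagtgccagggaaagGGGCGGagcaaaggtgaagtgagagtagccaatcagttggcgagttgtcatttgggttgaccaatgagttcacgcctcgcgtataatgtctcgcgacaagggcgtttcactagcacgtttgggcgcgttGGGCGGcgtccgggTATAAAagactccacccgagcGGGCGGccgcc
CCNL1: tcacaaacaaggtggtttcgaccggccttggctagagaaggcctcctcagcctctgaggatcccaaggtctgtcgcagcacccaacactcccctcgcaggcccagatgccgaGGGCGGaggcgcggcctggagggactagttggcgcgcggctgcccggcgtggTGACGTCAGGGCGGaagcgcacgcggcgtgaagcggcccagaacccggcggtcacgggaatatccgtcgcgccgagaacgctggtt
The letters TATAAA began 29 bases before the start in HEXIM1 and 32 before it in PPP1R10, both lower with AT7519, and were not found in this window of CCNL1. The CCNL1 window held TGACGTCA, beginning 86 bases before the start. All 3 windows held the GC box. In all 22114 RefSeq windows of 250 bases before to 50 after a start, 12.7% held TATAAA, 2.01% TGACGTCA, 7.28% CACGTG and 43% GGGCGG. Only 7829 of the 19336 tested genes matched a window, under 80%, so shares by direction describe the matched genes only and were not tested. Of these 7829, 5.72% held the core promoter letters and 70.5% the GC box. The core promoter letters were in 29 of 224 matched genes higher by at least 1 log2 with AT7519 (12.9%). They were in 69 of 949 lower by as much (7.27%). The lower genes printed here, all with these letters, thus do not stand for the lower genes as a set.

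**Figure D2:**
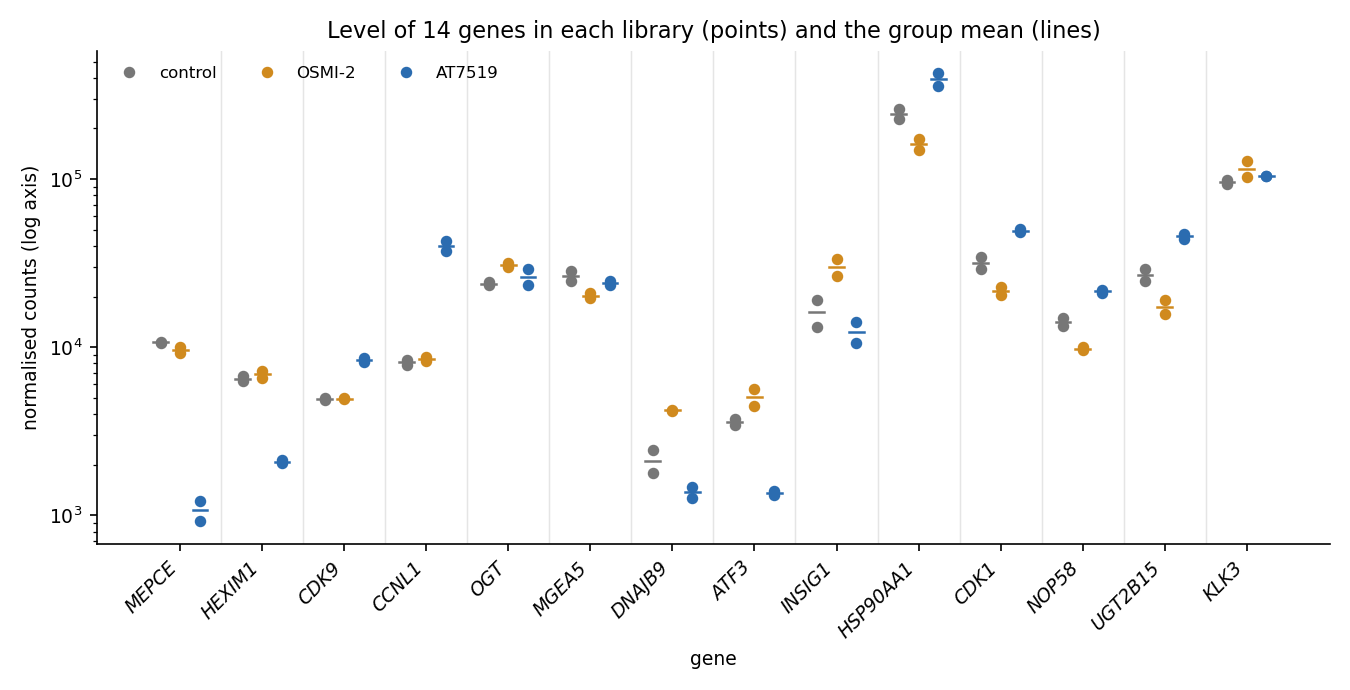
Points are single libraries and short lines group means, for 14 genes on a log axis of normalised counts, in control, OSMI-2 and AT7519. In MEPCE, HEXIM1, CDK9 and CCNL1 the OSMI-2 libraries lie close to control, whereas DNAJB9, HSP90AA1, CDK1, NOP58 and UGT2B15 have control between both agents and in INSIG1 control overlaps AT7519.

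The genes of O-GlcNAc cycling themselves differed by small amounts. OGT, the target of OSMI-2, held 23384 and 29175 normalised counts with AT7519, 31597 and 30152 with OSMI-2 and 24329.8 and 23509 in control. Both OSMI-2 libraries were above both AT7519 libraries (1.18-fold; log2 difference -0.24, SE 0.0908, adjusted p = 0.0343), but the call was lost without AT7519 replicate 1 (adjusted p = 0.437), OSMI-2 replicate 1 (0.161) or OSMI-2 replicate 2 (0.0666). MGEA5 showed the mirror image, with 24781 and 23336 under AT7519, 19571 and 20927 under OSMI-2 and 28413 and 24816 in control. It was 1.19-fold higher with AT7519 (log2 difference 0.25, SE 0.0804, adjusted p = 0.016), with the call lost without OSMI-2 replicate 1 (adjusted p = 0.122) or AT7519 replicate 1 (0.0891), and its sign turned with equal totals (-0.17), equal mitochondrial mRNAs (-0.54) and quantile normalisation (-0.22). Against control, OGT stood at 0.37 (adjusted p = 0.0437) with OSMI-2 and 0.13 (adjusted p = 0.258) with AT7519 on the log2 scale, and MGEA5 at -0.39 (adjusted p = 0.0222) and -0.14 (adjusted p = 0.151). Over the 13 genes of O-GlcNAc cycling and the hexosamine pathway that makes its sugar donor, 6 were higher and 4 lower. These shares were 46.2% and 30.8%, beside 28.7% and 29.5% of all genes. The list median of 0.10 turned to -0.32, -0.68 and -0.22 under those 3 scalings. No member differed by more than 0.53 in either direction. Genes of known OGT partner proteins gave 4 higher and 7 lower of 14 (28.6% and 50%, median -0.27).

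Genes of the endoplasmic reticulum and its unfolded protein response, which adds folding capacity when proteins misfold, differed in both directions. DNAJB9, an inducible co-chaperone of the lumen, held 1267 and 1468 normalised counts with AT7519, 4259.6 and 4199 with OSMI-2 and 1797 and 2438 in control. Control lay between both agents without overlap, at 1.01 (adjusted p = 0.00466) for OSMI-2 and -0.62 (adjusted p = 0.0013) for AT7519 (log2), and directly the gene was 3.1-fold lower with AT7519 (log2 difference -1.63, SE 0.13, adjusted p = 2.21e-07). HERPUD1, which serves the degradation of misfolded proteins (-1.33, adjusted p = 2.5e-07), and ERN1, the stress sensor IRE1 (-1.38, adjusted p = 2.7e-07), were lower too. HSP90B1, the abundant chaperone GRP94, was higher (0.82, adjusted p = 1.01e-06), though its sign turned with quantile normalisation (-0.0782). In the whole list, 14 of 25 were higher and 8 lower (median 0.49, -0.30 with equal mitochondrial mRNAs and -0.15 with quantile normalisation).

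Targets of ATF4, the activator of the integrated stress response, were lower with AT7519 in 15 of 30 cases and higher in 3 (median -0.35 beside -0.025 for all tested genes). ATF3, a stress-induced repressor, was not a member of this list. It held 1320.0 and 1387 normalised counts with AT7519, 5644 and 4474 with OSMI-2 and 3728 and 3463 in control. No AT7519 library reached any other, and ATF3 was 3.71-fold lower with AT7519 (log2 difference -1.89, SE 0.12, adjusted p = 4.29e-08), with control between both agents. CHAC1, which degrades glutathione, (-2.48, adjusted p = 8.1e-07) and STC2, a secreted stanniocalcin, (-1.82, adjusted p = 1.39e-08) were lower with AT7519. For these 2, OSMI-2 did not differ from control by the test, at -0.28 (adjusted p = 0.605) and 0.17 (adjusted p = 0.401). SLC7A11, the cystine transporter that feeds glutathione synthesis, held 22399.9 and 20013 with AT7519, 51297 and 40160.5 with OSMI-2 and 28457 and 30264 in control, and was 2.14-fold lower with AT7519 (log2 difference -1.10, SE 0.12, adjusted p = 2.47e-06).

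Some sterol genes also had OSMI-2 above control and AT7519 close to it. INSIG1, the reticulum protein that holds the sterol sensor SCAP, had 14182 and 10558 normalised counts with AT7519, 26376 and 33583 with OSMI-2 and 19028 and 13180.2 in control. Both OSMI-2 libraries were the highest, 2.43-fold above AT7519 (log2 difference -1.28, SE 0.17, adjusted p = 2.12e-05), while the AT7519 and control libraries overlapped. MVD, the mevalonate decarboxylase, was lower with AT7519 than with OSMI-2 (-0.83, adjusted p = 1.11e-05), and stood at 0.99 (adjusted p = 0.00176) against control with OSMI-2 and 0.16 (adjusted p = 0.213) with AT7519. EBP, a sterol isomerase, went against these (0.85, adjusted p = 2.2e-06). Over 24 cholesterol genes, 12 were lower and 6 higher with AT7519 (median -0.25). Fatty acid synthesis gave 2 lower and 6 higher of 16 (median 0.11, -0.31 with equal totals, -0.68 with equal mitochondrial mRNAs and -0.38 with quantile normalisation).

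The windows of HERPUD1 (chr16:56931892-56932141 on the plus strand) and INSIG1 (chr7:155297628-155297877 on the plus strand) are printed to set a stress gene and a sterol gene, both lower with AT7519, beside the 3 above, with the same source, build, direction and capitals.
HERPUD1: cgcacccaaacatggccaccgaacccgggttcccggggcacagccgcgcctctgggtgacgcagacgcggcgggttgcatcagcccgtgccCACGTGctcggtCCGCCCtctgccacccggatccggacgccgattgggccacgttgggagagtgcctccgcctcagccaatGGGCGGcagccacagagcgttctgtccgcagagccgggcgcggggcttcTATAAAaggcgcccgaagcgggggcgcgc
INSIG1: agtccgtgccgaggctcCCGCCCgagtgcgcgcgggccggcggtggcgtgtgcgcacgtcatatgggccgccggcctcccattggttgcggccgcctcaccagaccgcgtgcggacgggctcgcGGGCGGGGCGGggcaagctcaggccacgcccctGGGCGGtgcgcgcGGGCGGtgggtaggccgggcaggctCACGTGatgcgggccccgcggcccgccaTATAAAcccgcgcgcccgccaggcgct
Both held TATAAA close to the start, beginning 29 bases before it in HERPUD1 and 27 before it in INSIG1. Both also held CACGTG and several GC boxes, and neither held the letters searched for the endoplasmic reticulum stress or sterol response element. These matches describe the letters of genes picked singly, and were not tested for any effect or for a link with direction.

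**Figure D3:**
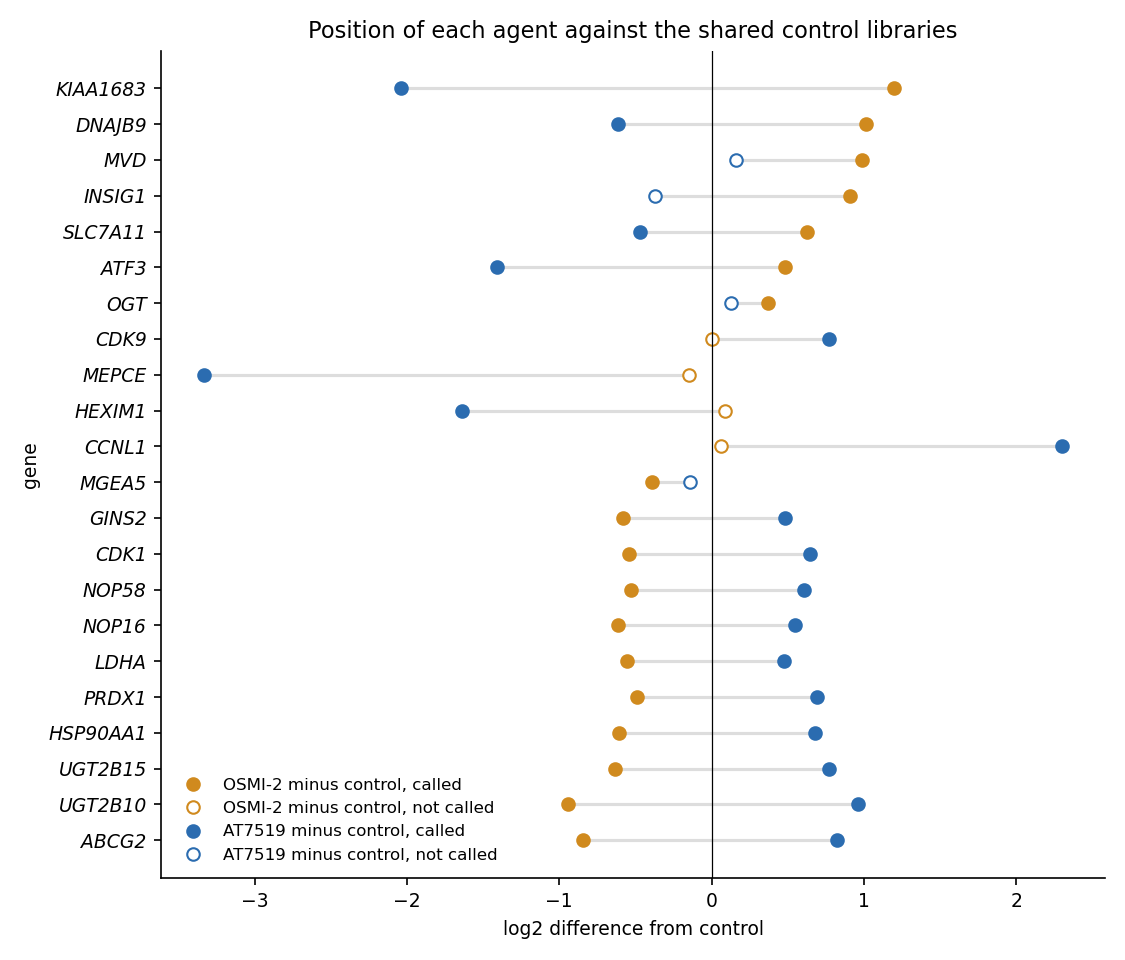
For 22 genes, the log2 difference from control is drawn for OSMI-2 and for AT7519, filled where called at an adjusted p below 0.05, and the grey line is the distance between both agents. The upper genes have OSMI-2 to the right and AT7519 to its left, the lower ones the reverse, and MEPCE, HEXIM1, CDK9 and CCNL1 have OSMI-2 close to 0; both differences share the control libraries.

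The reverse order, OSMI-2 below control and AT7519 above it, was found for single genes of replication, protein folding and steroid disposal. HSP90AA1, the stress-inducible cytosolic HSP90, held 426382 and 358779 normalised counts with AT7519, 149517 and 172383 with OSMI-2 and 228099 and 262684 in control. The agents lay on either side of control with no overlap, 2.44-fold apart (log2 difference 1.28, SE 0.10, adjusted p = 1.52e-07). HSPE1, the mitochondrial cochaperonin, was higher by a like amount (1.19, adjusted p = 9.51e-08). In the heat shock and chaperonin list 22 of 28 were higher with AT7519 (median 0.90, still 0.10 with equal mitochondrial mRNAs). The 2 lower ones were the inducible HSP40 genes DNAJB1 (-1.30, adjusted p = 1.38e-06) and DNAJB4 (-1.51, adjusted p = 3.03e-07).

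Genes of the cell cycle were called in both directions. CDK1, the mitotic kinase and itself among the CDKs that AT7519 can inhibit, held 50411 and 48219 normalised counts with AT7519, 22747 and 20538 with OSMI-2 and 29086 and 34162 in control. Its agents were on opposite sides of control, 2.28-fold apart (log2 difference 1.19, SE 0.0885, adjusted p = 1.15e-07). The replication factors GINS2 (1.06, adjusted p = 1.26e-06) and FEN1 (0.93, adjusted p = 2.01e-06) were also higher with AT7519 than with OSMI-2. Both calls were lost with equal mitochondrial mRNAs (0.27, adjusted p = 0.0853, and 0.14, adjusted p = 0.344). Over 41 genes of G1/S and DNA replication, 27 were higher and 4 lower (median 0.46, -0.33 with equal mitochondrial mRNAs). Mitotic genes gave 15 higher and 6 lower of 30 (median 0.17, -0.24 with equal totals, -0.62 with equal mitochondrial mRNAs and -0.11 with quantile normalisation). There BIRC5, survivin, was higher (0.98, adjusted p = 2.06e-07), and the kinase AURKA (-1.04, adjusted p = 1.1e-06) and cyclin F, CCNF (-1.23, adjusted p = 1.09e-06), were lower. Among CDKs, cyclins and their inhibitors, 10 of 21 were higher and 6 lower (47.6% and 28.6%). Their median was 0.27, or -0.15 with equal totals and -0.52 with equal mitochondrial mRNAs. Cyclin D1, CCND1 (-0.77, adjusted p = 1.19e-05), and cyclin E2, CCNE2 (-1.01, adjusted p = 1.04e-05), were lower with AT7519. CDKN1A, the CDK inhibitor p21, was higher (0.39, adjusted p = 0.00136), a sign that turned with equal totals (-0.0257) and equal mitochondrial mRNAs (-0.40).

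Ribosome biogenesis genes were also mostly higher with AT7519 on the deposited scale. NOP58, a core protein of box C/D particles, held 21945 and 20970.5 normalised counts with AT7519, 9969.6 and 9600.1 with OSMI-2 and 13315 and 14956 in control, so each agent lay on its own side of control (2.19-fold higher with AT7519; log2 difference 1.13, SE 0.0797, adjusted p = 8.88e-08). NOP16, a nucleolar protein, differed alike (1.16, adjusted p = 4.32e-07). Of 35 such genes 27 were higher and 2 lower (median 0.61, -0.19 with equal mitochondrial mRNAs).

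The UGT2B enzymes, which attach glucuronic acid to androgens so that they leave the cell, held the largest difference of the luminal prostate list. UGT2B15 held 47288 and 44171 normalised counts with AT7519, 15794 and 18986 with OSMI-2 and 24625 and 29243 in control. The order AT7519, control, OSMI-2 held without overlap, and the agents were 2.64-fold apart (log2 difference 1.40, SE 0.10, adjusted p = 8.31e-08). UGT2B10 (1.91, adjusted p = 1.55e-07) and UGT2B28 (1.43, adjusted p = 2.38e-06) shared that direction, though these genes are close in sequence and can share reads. The drug and urate exporter ABCG2 was likewise higher with AT7519 (1.67, adjusted p = 1.15e-05). The androgen-induced gene PMEPA1, an inhibitor of TGF-β signalling, was lower (-1.33, adjusted p = 2.99e-07). KLK3, which encodes prostate-specific antigen, did not pass the test: its AT7519 libraries (104019.7 and 104104) lay between the OSMI-2 libraries (103345 and 127264), and its log2 difference was -0.14 (limma 95% interval -0.39 to 0.10, adjusted p = 0.311). Over 33 androgen receptor targets and luminal genes, 12 were higher and 8 lower (36.4% and 24.2%, beside 28.7% and 29.5% of all genes). Their median was 0.0779, or -0.34 with equal totals, -0.71 with equal mitochondrial mRNAs and -0.12 with quantile normalisation.

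Immediate early genes, which cells switch on within minutes of a signal, were mostly lower with AT7519. They gave 20 lower and 4 higher of 30 tested, with a median of -0.93 beside -0.025 for all genes and 29.5% of all genes lower. GADD45B, a stress and growth arrest gene, held 45.6 and 23.4 normalised counts with AT7519 against 229.6 and 267 with OSMI-2 and 264 and 243 in control, 7.37-fold lower and far apart (log2 difference -2.88, SE 0.32, adjusted p = 3.49e-06). The orphan nuclear receptor NR4A2 was lower too (-2.62, adjusted p = 2.03e-05). MYC was among the genes that did not follow them. It held 15662 and 15943 under AT7519, 13380.4 and 13845 under OSMI-2 and 13649 and 15319 in control. The AT7519 libraries were slightly above the OSMI-2 libraries (log2 difference 0.22, SE 0.0783, adjusted p = 0.029), a call lost without any 1 of these 4 libraries (adjusted p 0.0575 to 0.143) and turned by equal totals (-0.20), equal mitochondrial mRNAs (-0.58) and quantile normalisation (-0.16).

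Genes of apoptosis were called in both directions. The pro-death BH3-only genes BMF (-2.14, adjusted p = 2.85e-08), BCL2L11, which encodes BIM (-1.92, adjusted p = 1.42e-07), HRK (-2.71, adjusted p = 0.0026) and PMAIP1, which encodes NOXA (-1.08, adjusted p = 1.08e-05), were lower with AT7519. BMF stood at 536 and 443 normalised counts with AT7519, 2104 and 2195 with OSMI-2 and 1761 and 1615 in control, so only the AT7519 libraries were low. MCL1, a short-lived protein that protects cells from death, held 38254 and 32764 with AT7519, 21629 and 22603 with OSMI-2 and 25198 and 25973 in control. Its AT7519 libraries were the highest (1.6-fold above OSMI-2; log2 difference 0.68, SE 0.0801, adjusted p = 5.88e-06), though the difference was -0.11 with equal mitochondrial mRNAs. The list of BCL2 family members and inhibitors of apoptosis gave 9 higher and 13 lower of 26 (34.6% and 50%, median -0.28). Targets of p53 were even, 9 higher and 10 lower of 27 (33.3% and 37%, beside 28.7% and 29.5% of all genes). Their median was -0.0261, with the nuclease AEN highest (1.35, adjusted p = 9.86e-08) and the damage sensor XPC among the lowest (-1.08, adjusted p = 2.27e-07). DNA repair genes were even as well, 17 higher and 19 lower of 45 (37.8% and 42.2%). Their median of 0.0297 turned to -0.39 with equal totals and -0.76 with equal mitochondrial mRNAs. The nucleotide excision repair genes ERCC4 (-1.96, adjusted p = 1.84e-08) and ERCC6 (-1.55, adjusted p = 1.01e-07) were lower.

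Clock genes were lower in 13 of 16 cases and higher in 1 (median -0.71). TEF, a clock output factor, held 207 and 180.0 normalised counts with AT7519, 1100.0 and 1196 with OSMI-2 and 1209.7 and 996 in control, 5.92-fold lower with no overlap (log2 difference -2.57, SE 0.16, adjusted p = 4.29e-08), and the repressor BHLHE40 was lower (-1.76, adjusted p = 2.26e-07). The 1 higher gene was the repressor PER1 (0.92, adjusted p = 0.00104). Zinc finger genes named ZNF, mostly KRAB repressors of repeats, were lower in 282 of 477 cases and higher in 67 (median -0.56). ZNF836 was lower (-3.28, adjusted p = 1.03e-07), while ZNF460 (1.87, adjusted p = 5.38e-08) and ZNF410, an activator of CHD4 (2.37, adjusted p = 4.39e-06), were higher. Genes of RNA decay gave 16 lower and 9 higher of 33 (48.5% and 27.3%, beside 29.5% and 28.7% of all genes, median -0.16). NF-κB genes were mostly uncalled, with 2 higher and 3 lower of 14 and a median of -0.0478 that turned to 0.11 with quantile normalisation.

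Lists of ribosomal protein, respiratory chain, mitochondrially encoded and proteasome genes were called higher with AT7519 in nearly every member on the deposited scale. Cytosolic ribosomal protein genes gave 87 higher and 0 lower of 88, with a median of 0.95 that was 0.16 with equal mitochondrial mRNAs. RPS10 led them (2.03, adjusted p = 7.84e-08), and RPL17 had control between both agents, at -0.47 (adjusted p = 0.0296) for OSMI-2 and 1.08 (adjusted p = 1.3e-06) for AT7519, with a direct difference of 1.54 (adjusted p = 6.63e-08). Nuclear genes of the respiratory chain were higher in 43 of 43 cases (median 0.98, or 0.19 on that scale), among them the complex I genes NDUFV2 (2.31, adjusted p = 1.76e-07) and NDUFB3 (1.11, adjusted p = 9.93e-08). The mitochondrially encoded mRNAs, made by the organelle's own polymerase, were higher in 13 of 13 cases by a similar median of 0.81, with MT-ND6 at 275412 and 263847 normalised counts against 119239 and 134205 (1.09, adjusted p = 3.82e-07). Proteasome subunits were higher in 31 of 32 cases (median 0.76, -0.0298 with equal mitochondrial mRNAs), led by PSMA6 (2.82-fold higher, adjusted p = 8.89e-08).

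Some further lists had more members higher than lower with AT7519 on the deposited scale, unlike the cholesterol list above. Aminoacyl-tRNA synthetases gave 14 higher and 0 lower of 20 (median 0.43, -0.36 with equal mitochondrial mRNAs and -0.064 with quantile normalisation). Polyamine synthesis gave 7 higher and 1 lower of 10 (median 0.65, -0.14 with equal mitochondrial mRNAs). Glycolysis and hypoxia genes gave 17 higher and 10 lower of 29 (median 0.48, -0.31 with equal mitochondrial mRNAs). LDHA, lactate dehydrogenase, was among the higher ones (1.03, adjusted p = 1.44e-07), at -0.56 (adjusted p = 0.00586) against control with OSMI-2 and 0.48 (adjusted p = 0.000164) with AT7519. NRF2 targets, which serve defence against oxidants, gave 12 higher and 7 lower of 22 (median 0.47, -0.32 with equal mitochondrial mRNAs and -0.11 with quantile normalisation). The peroxiredoxin PRDX1 was higher (1.18, adjusted p = 4.67e-08) and the oxidative stress gene OSGIN1 lower (-2.96, adjusted p = 1.06e-07). Replication-dependent histone genes, whose mRNAs lack a poly(A) tail, gave 9 higher and 5 lower of 44, with 30 not called. These shares of 20.5% and 11.4% were both below the 28.7% and 29.5% of all genes. Of 88 in the table, 44 lay below the limit of the test. The histone median was 0.0755, or -0.32 with equal totals and -0.69 with equal mitochondrial mRNAs.

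**Figure D4:**
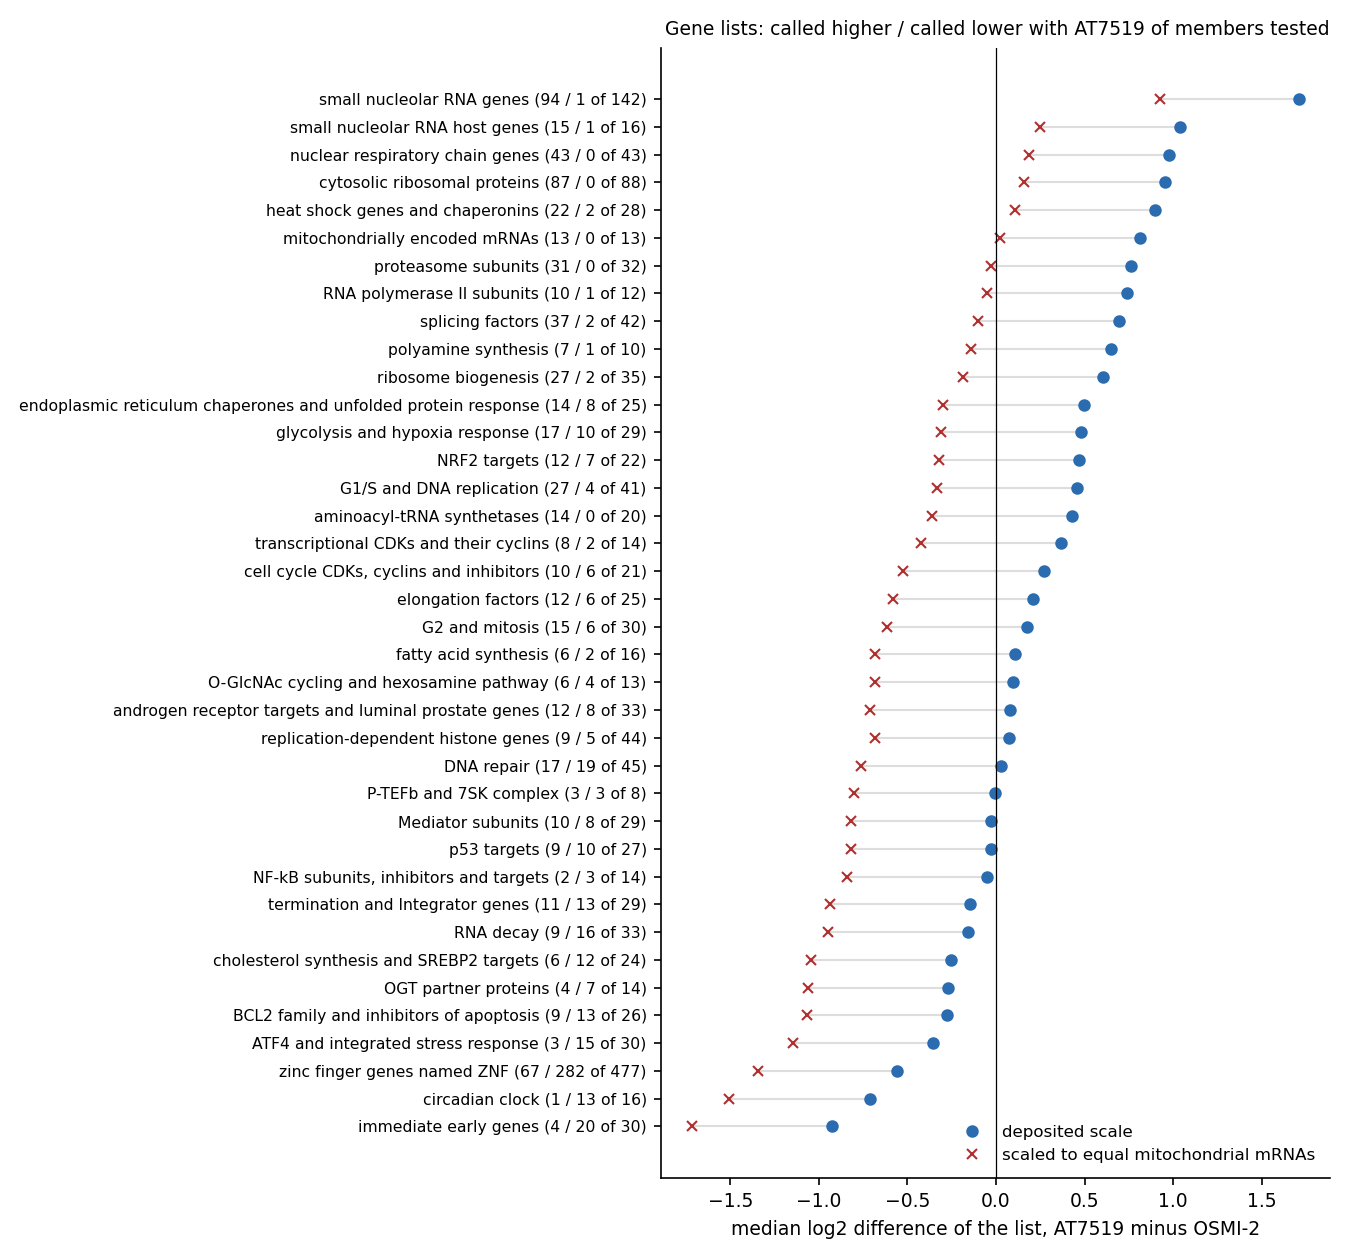
For each of 38 gene lists the median log2 difference between AT7519 and OSMI-2 is drawn on the deposited scale (circles) and after scaling to equal mitochondrial mRNAs (crosses), with the members called higher and lower in brackets. Small nucleolar RNAs and their hosts, respiratory chain, ribosomal protein and heat shock lists stay above 0 on both scales, the circles from proteasome subunits down to DNA repair cross to below 0, and immediate early, clock and zinc finger genes lie lowest.

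Of 42 splicing factors 37 were higher and 2 lower with AT7519 on the deposited scale, with a median of 0.69 that turned to -0.10 with equal mitochondrial mRNAs. U2AF1, which reads the end of introns, held 22127 and 30199 normalised counts with AT7519 against 10539.7 and 10505 with OSMI-2 (1.30, adjusted p = 3.09e-07). The regulators TRA2B (1.21, adjusted p = 9.81e-08) and CLK3, a kinase of SR proteins (1.18, adjusted p = 3.66e-07), were also higher. RBM15, an adaptor of RNA methylation, stood at 8616 and 9055 with AT7519, 1551 and 1764 with OSMI-2 and 1762 and 1646 in control, 5.34-fold higher (log2 difference 2.42, SE 0.11, adjusted p = 3.48e-09). ZC3H12A, the ribonuclease Regnase-1, was higher by a like amount (2.06, adjusted p = 1.75e-07).

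Small nucleolar RNAs (snoRNAs), which lie in introns and guide the modification of ribosomal RNA, were higher in 94 of 142 tested cases and lower in 1 (median 1.71, 0.93 with equal mitochondrial mRNAs). Of 387 in the table, 245 lay below the limit of the test, and 28 of the 142 averaged under 10 normalised counts with OSMI-2 and so entered the test through the AT7519 libraries, which favours higher calls. Over the 113 that averaged 10 or more in the control libraries, which the limit did not use, 75 were higher and 1 lower (median 1.67). SNORD53, in an intron of WDR43, held 151 and 288 normalised counts with AT7519 and 0.981 and 5.8 with OSMI-2. SNORD91A, in TSR1, held 77.4 and 193 and 2.94 and 1.66, so for both the AT7519 libraries were far above OSMI-2 levels of a few reads, and both are among those 28. Their non-coding host genes were higher in 15 of 16 cases and lower in 1 (median 1.04). SNHG15 held 15726 and 18569.7 with AT7519, 3538 and 3699.7 with OSMI-2 and 4725 and 4662 in control, 4.72-fold higher with AT7519 (log2 difference 2.24, SE 0.10, adjusted p = 2.06e-09), and SNHG1 was higher as well (1.95, adjusted p = 7.22e-09).

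Coding genes that hold snoRNAs included some of the largest differences among abundant genes. EIF4A1, a helicase of translation initiation that holds SNORA48, SNORD10 and SNORA67, held 8309 and 14035 normalised counts with AT7519, 1011 and 1049.8 with OSMI-2 and 1097 and 1050.3 in control. The AT7519 libraries were 10.5-fold above OSMI-2 (log2 difference 3.39, SE 0.17, adjusted p = 8.02e-09), yet they also differed from each other more than those of most genes named here. RABGGTB, which holds the SNORD45 genes, was higher too (2.12, adjusted p = 2.06e-09). Whether reads of the inner RNA were counted to the host, to the inner gene or to neither cannot be told from the values. As a class, 234 coding genes with a snoRNA or scaRNA inside gave 117 higher and 41 lower (median 0.34). Coding genes holding none gave 4170 higher and 4074 lower of 13037 (median -0.00758). The classes were not matched for level, and of all genes averaging 5000 normalised counts or more 62.5% were higher and 16.4% lower. Whether holding such an RNA goes with the direction apart from level was not tested.

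Single-exon genes of any type within a coding gene on its strand gave 230 higher and 24 lower of 441, with a median of 1.03. Of these, 117 averaged under 10 with OSMI-2 and entered through AT7519, against 15 the other way. Over the 303 with 10 or more in control, 137 were higher and 23 lower (median 0.74). Many of the largest differences in favour of AT7519 were of this kind. The pseudogenes RPL29P14 in CSNK1A1, RNF138P1 in PLPP1, TYRO3P in ETFA and TNRC18P1 in TBC1D9 differed by 5.38, 4.78, 4.67 and 4.42. The intronless genes EID3 in TXNRD1 and RPA4 in DIAPH2 differed by 4.62 and 4.33. Of these examples, RPL29P14 and RPA4 averaged under 10 with OSMI-2 (6.23 and 7.76) and in control (3.43 and 8.17). They are thus among the 117 that entered through AT7519 and outside the 303 kept by control. EID3 stood at 214 and 553 normalised counts with AT7519 and 13.7 and 12.4 with OSMI-2, so the groups were far apart though the AT7519 libraries differed between themselves. Whether such reads came from the inner gene or from RNA of its host cannot be told from the values. DDX47, a nucleolar helicase not held by another coding gene in the annotation, was higher as well (1546 and 2184 against 104 and 114; log2 difference 4.06, SE 0.22, adjusted p = 1.19e-08).

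The largest differences in favour of OSMI-2 were in scarce transcripts that nearly vanished with AT7519. USP51, a deubiquitinase gene, had 1 read over both AT7519 libraries and 311 over both OSMI-2 libraries, a ratio of 248 (95% exact interval 44.1 to 9810, counting error only). RIMBP3 had 2 reads against 279, a ratio of 111 (30.5 to 922). The transposon-derived gene TIGD3 held 5.07 and 3.05 normalised counts with AT7519 and 172 and 154 with OSMI-2 (-5.04, adjusted p = 2.58e-07). FZD8, a Wnt receptor encoded by a single exon, held 20.3 and 15.3 against 471 and 435 (-4.61, adjusted p = 7.99e-07). Among abundant genes, C1orf116 held 3407 and 3294 against 21491 and 21805 (log2 difference -2.69, SE 0.11, adjusted p = 2.06e-09). The kinase TAOK1 (-1.88, adjusted p = 2.06e-09) and the zinc transporter SLC30A4 (-1.88, adjusted p = 2.61e-08) came next. KIAA1683 had the largest difference of genes with each agent called on its own side of control, at 98.9 and 90.5 with AT7519, 795 and 1017 with OSMI-2 and 418 and 367 in control (9.41-fold lower with AT7519; log2 difference -3.23, SE 0.20, adjusted p = 4.53e-08). In all, 15 tested genes were at 0 in both libraries of an agent, and no fold is given for them.

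Level, span and gene type went with the direction of the difference. Gene types, spans and exon numbers were matched by symbol to GENCODE release 29, which gave a type to 15722 tested genes (81.3%). Its positions were used only among its own genes, for spans, overlaps and nesting, and are not printed, because the authors' build is older. Of genes that averaged 5000 normalised counts or more, 62.5% were higher and 16.4% lower with AT7519, whereas of those between 500 and 5000 26.6% were higher and 39.7% lower. The level enters the test, so these shares also follow precision. Coding genes spanning less than 5 kb were higher in 40.4% and lower in 24.8% of cases, and those over 100 kb in 19.7% and 38.9%. Single-exon coding genes outside other genes were lower in 89 and higher in 48 of 220 cases (median -0.35), and those inside a coding gene on its strand lower in 4 and higher in 9 of 23 (median 0.34). Long intergenic RNAs (lincRNAs) were lower in 94 and higher in 24 of 253, and antisense RNAs in 155 and 29 of 354. Of these, 22 lincRNAs and 23 antisense RNAs averaged under 10 normalised counts with AT7519, and 7 and 8 with OSMI-2. Over those with 10 or more in control, lincRNAs gave 94 lower and 23 higher of 241, and antisense RNAs 154 and 28 of 345. Processed pseudogenes gave 342 higher and 58 lower of 862, and can share reads with their parent genes. Of the 862, 75 averaged under 10 with OSMI-2 and 34 with AT7519. Over the 779 with 10 or more in control, 319 were higher and 56 lower. Members low with 1 agent entered the test through the other, which favours calls in that direction. None of these counts was tested, and on the scale of equal mitochondrial mRNAs the share of calls that were lower over all genes was 95.9%.

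**Figure D5:**
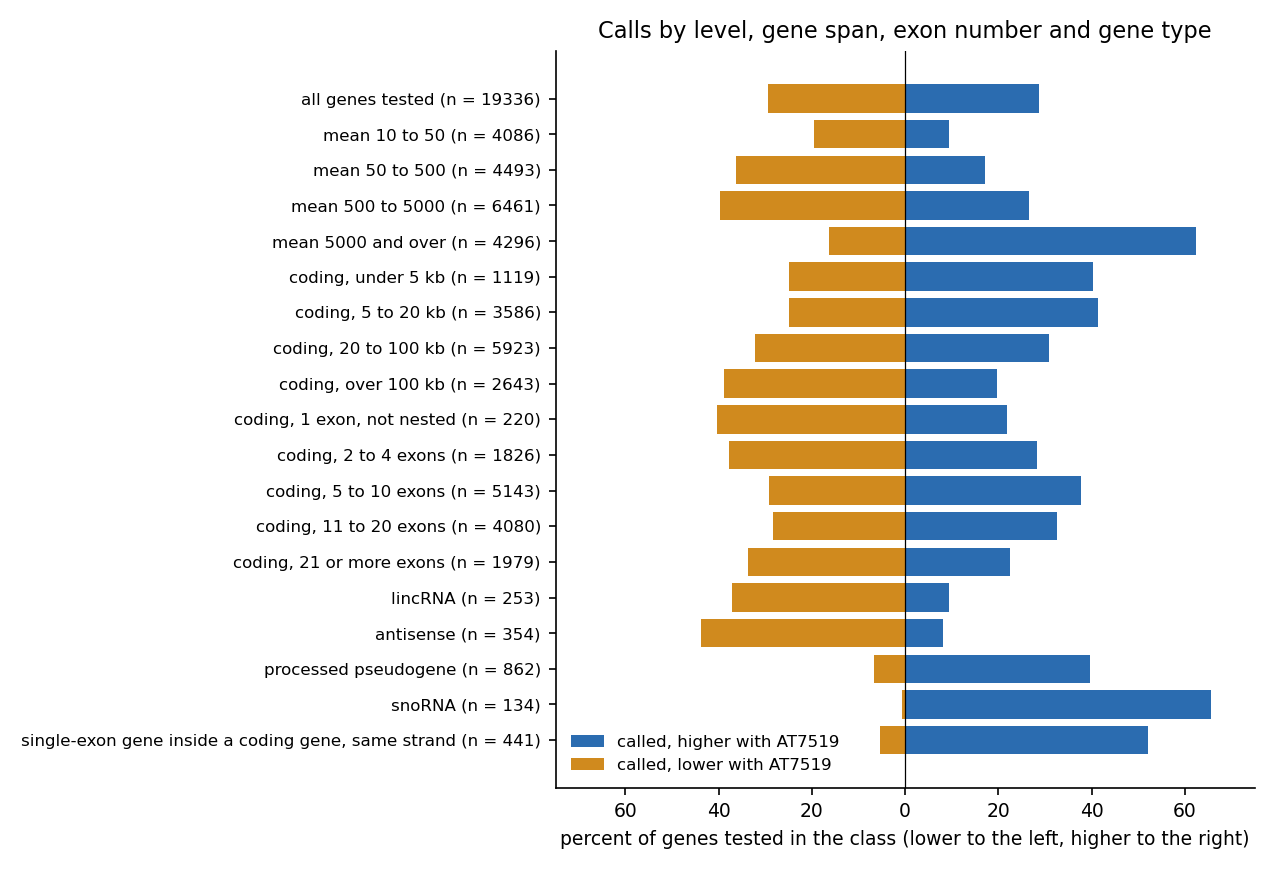
Bars give the percent of genes in each class called higher (right) or lower (left) with AT7519 than with OSMI-2, by mean level, span, exon number and gene type, with the number tested in brackets. The highest level class, snoRNAs and single-exon genes inside coding genes lie mostly to the right, and lincRNAs, antisense RNAs and single-exon coding genes outside others mostly to the left.

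Some values are shared between neighbours. A coding gene on the other strand overlaps MEPCE, PPP1R10, AFF1, BRD3, POLR2L, CCND1, CCNE2, GINS2, FEN1, NOP16, HSP90AA1, HSPE1, HSP90B1, DNAJB1, DNAJB9, PRDX1, NDUFB3, CLK3, XPC and ZNF410. On the same strand, where strand cannot part the reads, a coding gene or read-through transcript overlaps DDX47 (APOLD1), RABGGTB (ACADM), EIF4A1 (SENP3-EIF4A1), RPS10 (RPS10-NUDT3), RPL17 (RPL17-C18orf32), HSPE1 (HSPE1-MOB4), FEN1 (FADS2), DNAJB4 (GIPC2) and ZNF410 (PTGR2), and gene models without a common name overlap MED26, INTS5, PSMA6, OSGIN1 and PER1. The library kit kept the strand, but whether counting used it is not given in the sources used here. Ribosomal protein genes and HSP90AA1 have near-identical pseudogenes with which reads can be split. Of the 107 called genes named here, 103 were called in the same direction without each of the 8 libraries in turn; the others were OGT, MGEA5, CCNT1 and MYC. Over all genes, 7920 of 11254 calls (70.4%) were.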

How the data were processed

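RNA was sequenced from LNCaP cells in 8 libraries, 2 in each of 4 groups. The deposited table gives a normalised signal, in which the authors had scaled the read count of each gene by a size factor of its library. STAR, HTSeq, DESeq2 and the builds hg19 and GRCh37 are named, per the submitters' processing notes. Tool versions and roles, the annotation and the counting strand were not given in the sources used here. Dividing each column by its smallest step returned whole reads (100% of values, tolerance 0.01), at depths of 88244103 to 111848023 reads in the 4 libraries compared. Of 55737 genes, 22359 had no read in any library, and 28 nameless lines holding no counts were dropped.

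The test used log2(value + 1), a pseudocount of 1, so differences of scarce genes are understated. The 4 group means were fitted with limma 3.58.1 in R 4.3.3, with a variance trend, over all 8 libraries, with 4 residual and 10.0 prior degrees of freedom, on the 19336 genes with a mean of at least 10 over the 4 libraries. These genes held 99.97% of the counts of those libraries. The contrast was AT7519 minus OSMI-2, two-sided, with Benjamini-Hochberg adjustment over all genes tested and calls at an adjusted p below 0.05. The script was tested on simulated data. Medians and counts of lists were described without a set test, and a fold is 2 to the power of the log2 difference. Counts over genes that averaged 10 or more in the control libraries were added after seeing the data.

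The comparison, the gene lists and the genes named were chosen with earlier results of these data known. The rule named the largest differences among genes with a mean of at least 50 and of at least 5000 normalised counts, genes called on opposite sides of control, up to 3 members per list and direction, and 11 genes of interest. Fewer are named than it gives, decided after their values were seen. One endothelial marker, PECAM1, was not found in the table. Symbols were matched to GENCODE release 29 directly (33866) or by an older symbol (1349), and 20522 were not matched. Alternatives changed the pseudocount, gene filter, libraries fitted, variance trend, scaling and replicate term, left out each library, and ran edgeR 4.0.16 and DESeq2 1.42.0 on the recovered reads.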

Additional observations from a re-analysis of the deposited data

How the results depend on the processing

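The number of genes called lay between 9193 and 13422 under the 21 alternatives, all within 1.5 times 11254. Scaling to equal totals or equal mitochondrial mRNAs changed the split of directions, and the cause was not tested. Equal upper quartiles (5378 higher, 5855 lower) and quantile normalisation (5688 and 4975) kept it near even. With equal totals 2348 genes were higher and 9334 lower with AT7519, and with equal mitochondrial mRNAs 552 and 12870. Genes at least 1 apart on the log2 scale numbered 443 higher and 4799 lower with equal totals, 345 and 7703 (8048 together) with equal mitochondrial mRNAs, 1570 higher with quantile normalisation, and 638 higher where the mean had to reach 50, which tests fewer genes. Without each library in turn 9193 to 11497 genes were called, 4644 to 5634 higher and 4529 to 5863 lower. edgeR on the recovered reads gave 5358 higher and 5955 lower, and DESeq2 5470 and 5509.

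The replicate numbers do not pair the libraries by any label, and deviations of equal numbers correlated with r = 0.0255. With the replicate block 11564 genes were called, 5689 higher and 5875 lower.

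Values of named genes turned with equal mitochondrial mRNAs (-0.54 for MGEA5, -0.0271 for CDK9, -0.49 for CCNT1, -0.23 for CCNT2, -0.58 for MYC, -0.11 for MCL1 and -0.40 for CDKN1A), equal totals (-0.17 for MGEA5, -0.12 for CCNT1, -0.20 for MYC and -0.0257 for CDKN1A) and quantile normalisation (-0.22 for MGEA5, -0.16 for MYC and -0.0782 for HSP90B1), and KLK3, not called, ranged from -0.29 to 0.00997 as single libraries were left out. List medians turned with equal mitochondrial mRNAs to -0.68 for O-GlcNAc cycling and hexosamine pathway, -0.43 for transcriptional CDKs and their cyclins, -0.58 for elongation factors, -0.0515 for RNA polymerase II subunits, -0.10 for splicing factors, -0.52 for cell cycle CDKs, cyclins and inhibitors, -0.33 for G1/S and DNA replication, -0.62 for G2 and mitosis, -0.19 for ribosome biogenesis, -0.0298 for proteasome subunits, -0.30 for endoplasmic reticulum chaperones and unfolded protein response, -0.36 for aminoacyl-tRNA synthetases, -0.68 for fatty acid synthesis, -0.71 for androgen receptor targets and luminal prostate genes, -0.76 for DNA repair, -0.32 for NRF2 targets, -0.31 for glycolysis and hypoxia response, -0.14 for polyamine synthesis and -0.69 for replication-dependent histone genes. With equal totals they turned to -0.32 for O-GlcNAc cycling and hexosamine pathway, -0.0531 for transcriptional CDKs and their cyclins, -0.21 for elongation factors, -0.15 for cell cycle CDKs, cyclins and inhibitors, -0.24 for G2 and mitosis, -0.31 for fatty acid synthesis, -0.34 for androgen receptor targets and luminal prostate genes, -0.39 for DNA repair and -0.32 for replication-dependent histone genes. With quantile normalisation they turned to -0.22 for O-GlcNAc cycling and hexosamine pathway, -0.11 for G2 and mitosis, -0.15 for endoplasmic reticulum chaperones and unfolded protein response, -0.064 for aminoacyl-tRNA synthetases, -0.38 for fatty acid synthesis, -0.12 for androgen receptor targets and luminal prostate genes, -0.11 for NRF2 targets and 0.11 for NF-kB subunits, inhibitors and targets. The median of the P-TEFb and 7SK complex ranged from -0.18 to 0.16 as single libraries were left out. With equal mitochondrial mRNAs, GINS2, FEN1, BIRC5, HSP90B1, EBP, PER1 and LDHA kept their sign but were no longer called (limma's adjusted p 0.0569 to 0.833). Beyond the scale, which no spike-in fixes here, 2 libraries per group and counts of a few reads limit the scarcest genes.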

Other observations

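Small RNA genes other than snoRNAs were also counted. Of 61 small nuclear RNA genes tested, most of which encode parts of the spliceosome or copies of them, 29 were higher and 10 lower with AT7519 than with OSMI-2 (median log2 difference 1.19 beside -0.025 for all genes). Of these, 28 averaged under 10 normalised counts with OSMI-2 and entered the test through the AT7519 libraries, and over the 30 with 10 or more in control 8 were higher and 9 lower (median -0.35). Of 97 microRNA genes, 30 were higher and 17 lower (median 0.23), or 11 and 15 of the 68 so kept by control (median -0.15). Sense intronic RNAs gave 17 higher and 5 lower of 44 (median 0.69), or 11 and 5 of 34 (median 0.21). MIR3680-1, inside the pseudogene SMG1P3, held 181 and 262 normalised counts with AT7519 against 6.87 and 4.14 with OSMI-2 and 8.23 and 1.83 in control (log2 difference 5.11, SE 0.51, adjusted p = 1.17e-06). MIR3687 held 161 and 64.1 with AT7519 against 0.981 and 4.14 with OSMI-2 (log2 difference 5.01, SE 0.72, adjusted p = 3.84e-05). SCARNA1, a guide RNA of the Cajal body, held 67.2 and 130.2 against 2.94 and 10.8 (log2 difference 3.80, SE 0.76, adjusted p = 0.000647). In all 3 both AT7519 libraries lay above both OSMI-2 libraries, and limma called each at a Benjamini-Hochberg adjusted p below 0.05. However, all 3 averaged under 10 normalised counts with OSMI-2 (5.51, 2.56 and 6.86) and in control (5.03, 1.47 and 5.75). They entered the test through the AT7519 libraries, which favours higher calls, and were named for the size of their difference. These classes were not tested as groups.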
